A study of Saccharomyces cerevisiae with 16 samples.

Results

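The genes described here encode the machinery that brings proteins into mitochondria and folds them there: 33 genes of the 5449 that the arrays measured by name in Saccharomyces cerevisiae. They were chosen by symbol from a list of import and folding components, and all 33 were found, each by 1 probe set that was shared with no other gene. They fall into 5 roles: 11 genes of the outer membrane complexes TOM and SAM, 5 small TIM chaperones of the intermembrane space, 7 genes of the inner membrane translocases, 6 of the import motor, and 4 of the chaperonin and the processing peptidase. All 33 passed the filter on low values. Their log2 values lay between 9.31 and 15.45 over the 16 arrays.

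The study followed the laboratory strain CEN.PK113-7D on mineral medium while the glucose in the feed was raised linearly, so that growth limited by glucose gave way to growth limited by ammonia. It compared an anaerobic series of 8 samples with an aerobic series of 8 samples, with the same strain and the same kind of feed in both. The anaerobic samples were taken at 0, 4.35, 10.38, 16.88, 26.52, 35.67, 42.85 and 50.85 h, when the feed held 1, 4.87, 10.31, 16.19, 24.86, 33.1, 39.56 and 46.75 g/L of glucose. The aerobic samples were taken at 0, 4.1, 6.85, 9.6, 14.5, 27.25, 42.65 and 53.95 h, at 1, 5.51, 8.5, 11.56, 16.96, 30.97, 47.91 and 60.34 g/L. Each sample gave 1 Affymetrix array. In each series the 3 arrays of highest feed glucose are called late, the 3 of lowest feed glucose early, and the 2 between them mid. The labels do not say at which sample ammonia became limiting. Nothing in them says that a series holds more than 1 culture; the spread behind each p-value is that among serial samples. Each condition had 1 series, and oxygen and culture cannot be told apart.

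Most mitochondrial proteins are made in the cytosol and carried across the mitochondrial membranes as unfolded chains. The TOM complex is their common entry gate, SAM inserts barrel proteins into the outer membrane, the small TIMs escort hydrophobic proteins across the intermembrane space, and the TIM23 and TIM22 complexes serve the matrix and the inner membrane. The motor around the matrix heat shock protein Ssc1 pulls chains in, the processing peptidase cuts off their targeting signals, and the chaperonin Hsp60 with Hsp10 folds the products. Yeast needs this machinery with or without respiration, because mitochondria also make iron-sulphur clusters and other compounds.

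Some arrays stood apart before any comparison was made. The aerobic array at 9.6 h correlated with the rest of its series, over all genes, at a median r of 0.776, against 0.8597 to 0.9272 for the other aerobic arrays. The anaerobic array at 0 h went partly against its label: 6 of the 7 markers of cells without oxygen lay at least 1 log2 unit below the median of the other 7 anaerobic arrays, and all 24 respiratory chain genes lay above all of these arrays. The mean of the 7 markers was 9.83 at 0 h and 9.82 at 4.35 h and then 12.62 to 13.73 in the anaerobic series, against 5.74 to 6.58 on the aerobic arrays. Over both series 6 of them rose without oxygen and CYC7 fell, though CYC7 was not called after centring or quantile normalization. Array medians were 10.80 to 10.98 log2 units in the anaerobic series and 11.36 to 11.53 in the aerobic series. The number of arrays limits the precision. Results are also given without the aerobic 9.6 h array and both 0 h arrays, a set chosen with earlier results known. The aerobic 0 h array stood little apart by correlation, at a median r of 0.8597 against 0.8719 at 6.85 h. The import and folding genes averaged 12.59 there, near the late means of 12.45 to 12.57, against 13.37 and 13.31 on the other early arrays. Leaving it out thus widens the aerobic late minus early change for most of these genes.

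The import and folding genes had a common course in each series. The mean of the 33 members on the anaerobic arrays, in order of time, was 12.34, 12.45, 12.63, 12.48, 12.44, 12.23, 11.82 and 11.89 log2 units. It was highest at 10.38 h and lowest on the last 2 arrays. In the aerobic series the mean was 12.59, 13.37, 13.31, 12.04, 12.36, 12.45, 12.51 and 12.57 log2 units. There it was highest at 4.1 and 6.85 h, lowest at 9.6 h, and then between 12.36 and 12.57 from 14.5 h on.

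**Figure D1:**
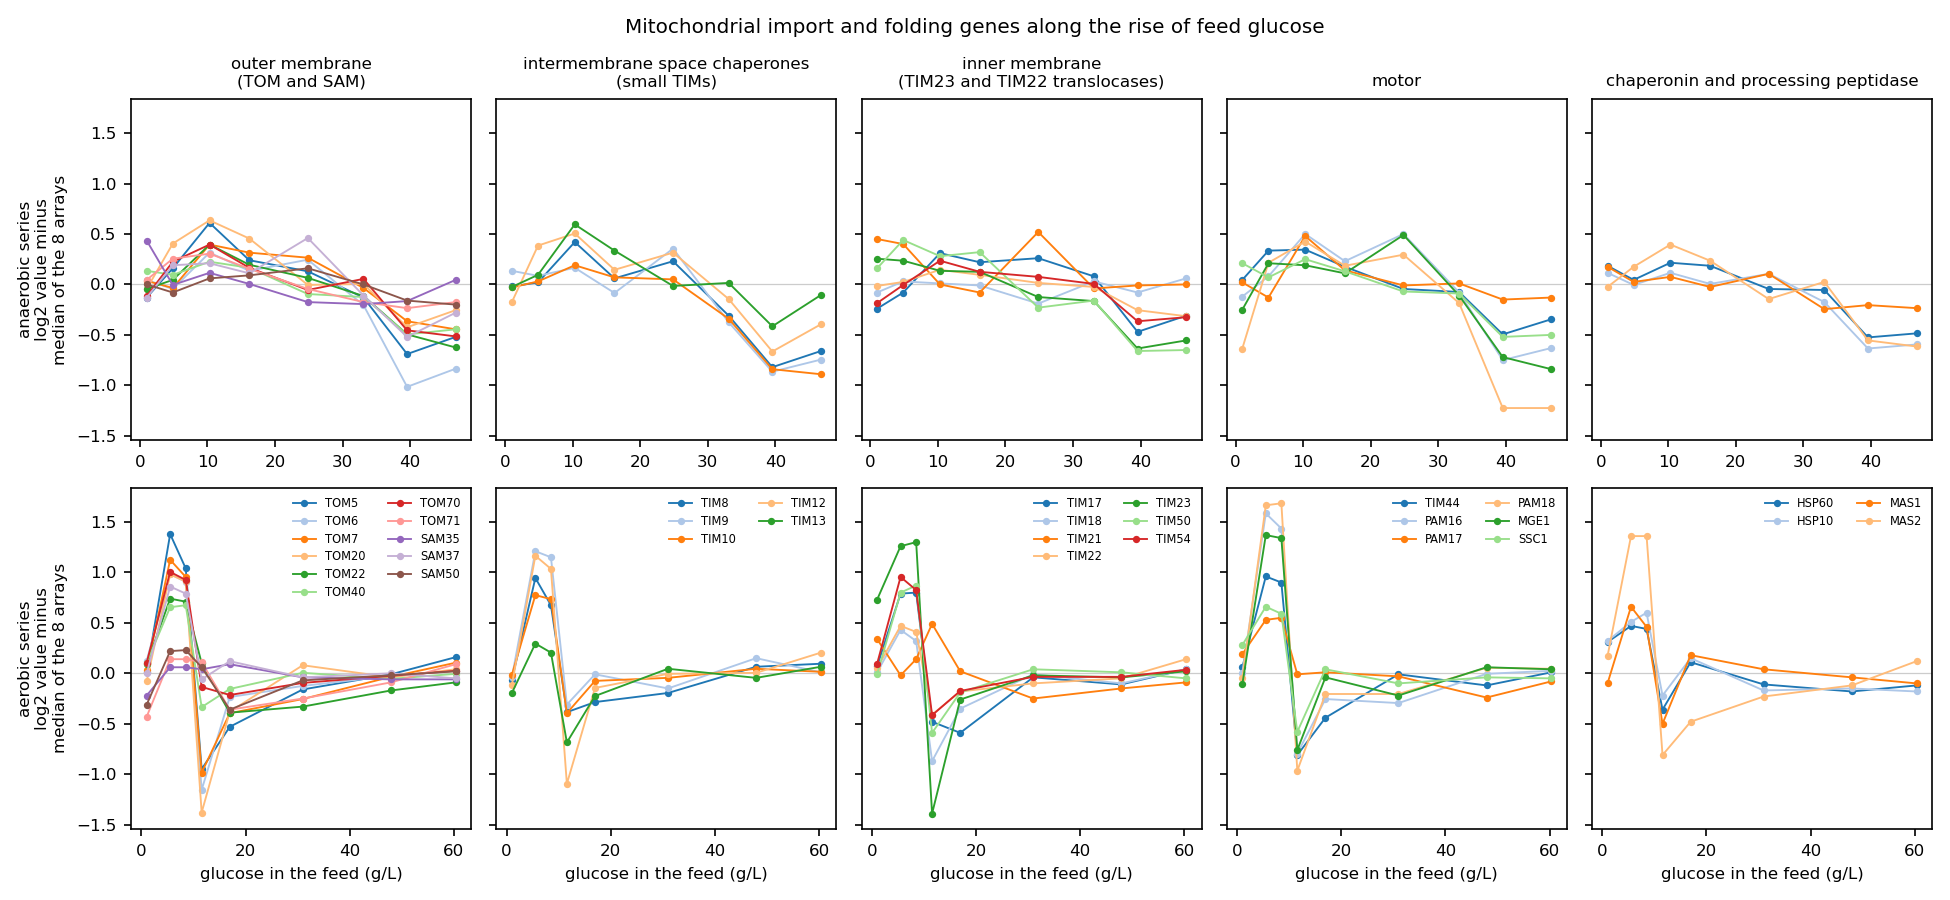
Log2 value of each of the 33 members minus its own median over the 8 arrays of its series, against glucose in the feed (g/L), with the anaerobic series in the upper row, the aerobic series in the lower row and 1 column per role. In the aerobic row the points at 5.51 and 8.5 g/L stand above the other 6 in 31 of 33 members, and in the anaerobic row the last 2 points stand below the other 6 in 28 of 33.

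The course was shared by nearly all members. In the anaerobic series the 42.85 and 50.85 h arrays both lay below the other 6 in 28 of 33 members, a pattern found in 17.1% of all genes tested. The exceptions were SAM35, TIM18, TIM21, PAM17 and MAS1. Without the 0 h array the count was again 28, against 22.6% of genes. In the aerobic series the 4.1 and 6.85 h arrays both lay above the other 6 in 31 of 33 members, against 23.8% of genes, and SAM35 and TIM21 were the exceptions. Without the 0 h and 9.6 h arrays the count was 31 as well, against 29.7% of genes. These patterns were chosen after values had been seen, so they carry no test.

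At 0 h most members stood below the next arrays. Values on both of the next 2 arrays were higher than at 0 h for 20 of 33 members in the anaerobic series, where 30.94% of genes did so; the members' median difference was 0.20 log2 units. With oxygen 32 of 33 members did so, TIM21 being the exception, where 45.42% of genes did so; the members' median difference was 0.77 log2 units. The aerobic 9.6 h array was the lowest of its series for 25 of 33 members, against 25.0% of genes. It lay at least 1 log2 unit below the median of the other 7 aerobic arrays for 6 members (12.9% of genes did so): TOM6, TOM7, TOM20, TIM12, TIM23 and PAM18, with deviations of -1.42 to -1.01. TIM21 was highest there, 0.51 above that median. This is a single array, so no test was made.

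Markers of nitrogen limitation were high on the arrays where most members were low. They rose late minus early in 1 of 5 cases in the anaerobic and in 5 of 5 in the aerobic series, where 193 and 584 of 5213 genes rose. The 5 markers, among them the ammonium permease gene MEP2 and the amino acid permease gene GAP1, averaged 10.29, 9.43, 8.80, 8.90, 9.44, 9.58, 13.53 and 13.69 log2 units over the anaerobic arrays in order of time. Over the aerobic arrays they averaged 10.46, 8.91, 9.17, 14.84, 14.61, 14.68, 14.71 and 14.72. The marker mean was at least 13.53 at 42.85 and 50.85 h in the anaerobic series, and at least 14.61 from 9.6 h on in the aerobic series, the arrays on which the members' mean was low. The anaerobic late array at 35.67 h had low marker values and a members' mean of 12.23, and the aerobic 0 h array had a marker mean of 10.46 beside a members' mean of 12.59, close to that of the late arrays. All 6 markers of a cells and 2 of 3 tested markers of alpha cells also rose in the aerobic series and 0 in the anaerobic series by limma, where 5 of the a cell and 0 of the alpha cell markers had an unadjusted p under 0.05. The a cell markers had aerobic means of 14.53 to 14.73 on the late arrays, against 12.19 to 13.26 on the early arrays. The part of either in the members' course was not tested. In bulk samples fewer cells of a kind and less RNA per cell cannot be told apart.

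**Figure D2:**
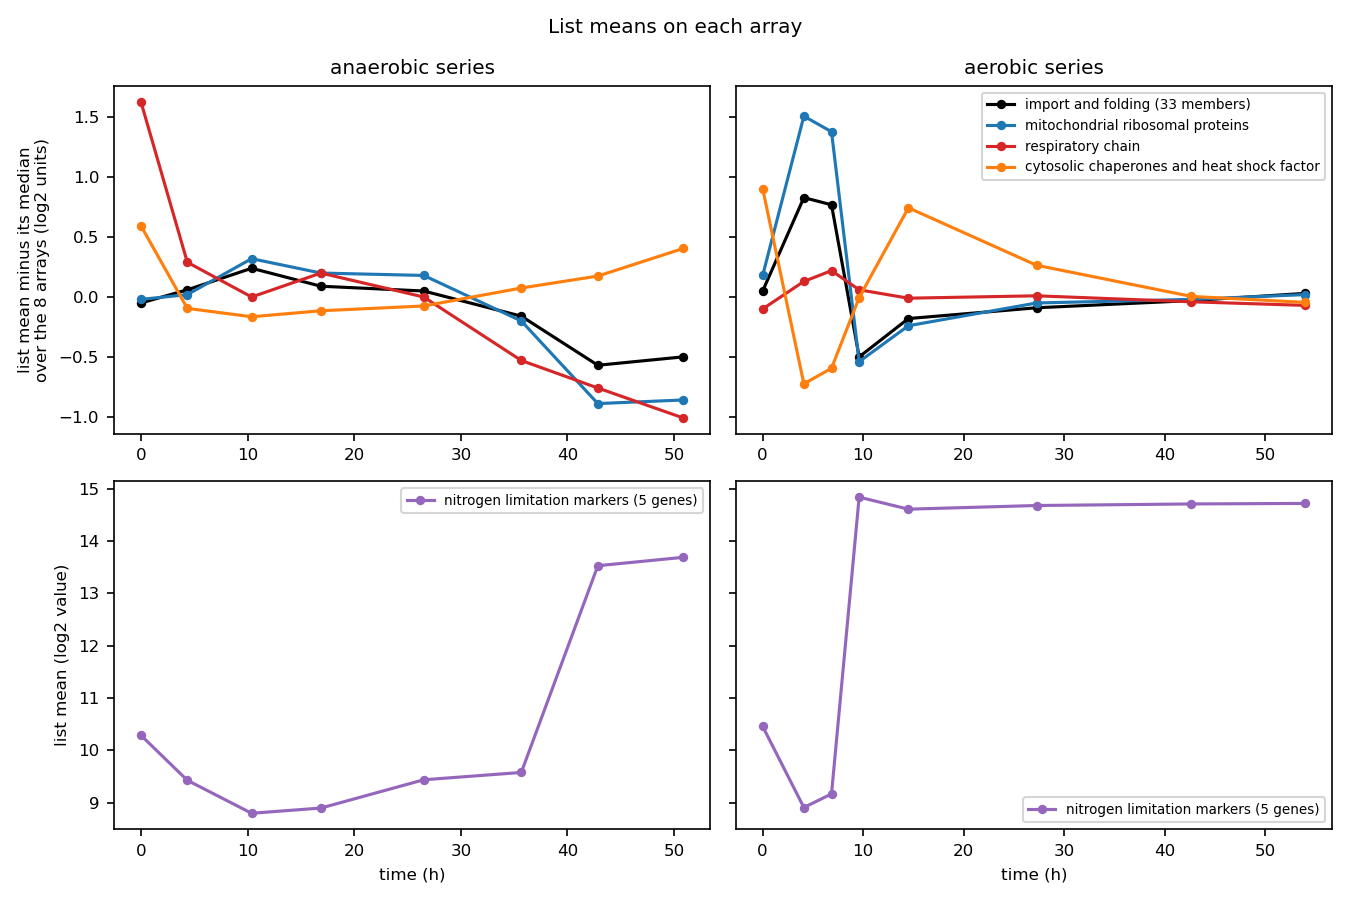
Mean log2 value of gene lists on each array against time (h), with the anaerobic series on the left and the aerobic series on the right. The upper panels show 4 lists as differences from their own median over the 8 arrays, and the lower panels show the mean of the 5 nitrogen limitation markers, which was at most 10.29 before 42.85 h in the anaerobic series and at most 10.46 before 9.6 h in the aerobic series.

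The late minus early comparison asked whether the machinery differed between high and low feed glucose. In the anaerobic series the late value was lower for 32 of 33 members, with a median change of -0.54 log2 units against 0.00 for all genes tested. The chaperonin cofactor gene HSP10 and the small TIM gene TIM10 fell, and 0 members rose; 2.34% of genes fell. In the aerobic series the late value was lower for all 33 members, with a median of -0.58 against 0.10 for all genes. Here 8 fell (TOM22, TOM40, TIM23, PAM17, SSC1, HSP60, HSP10 and MAS2) and 0 rose, where 4.28% of genes fell. After centring or quantile normalization 0 members were called in the anaerobic series, and 7 or 9 in the aerobic series. Calls are limma's, with a Benjamini-Hochberg adjusted p under 0.05 over 5213 genes, and errors are standard errors of that fit.

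The set of 3 arrays named above was chosen with earlier results known, and it takes out the early aerobic array nearest the late ones. Calls without these arrays are therefore no separate evidence of a fall. Without the 3 arrays the counts were larger. In the anaerobic series 25 of 33 members then fell (19.7% of genes), with a median of -0.53. With oxygen 28 fell (21.4% of genes), with a median of -0.84. Late arrays lay wholly below early arrays for 16 members in the anaerobic series (14.9% of genes) and for 14 in the aerobic series (17.6% of genes). Single arrays moved the counts. The anaerobic count of 2 became 8 without the aerobic 0 h array, 7 without the anaerobic 35.67 h array, 5 without either aerobic mid array, 1 without the aerobic 6.85 h array and 0 without any other single array. The aerobic count of 8 became 27 without the aerobic 0 h array, 13 without either aerobic mid array, 1 without the 4.1 h array, 0 without the 6.85 h array and 2 without any 1 of the late arrays. It became 5 without either anaerobic mid array and 4 without the anaerobic 42.85 h array. A straight line on feed glucose in place of the groups called 0 members in either series, and fits of each series alone called 0 in the anaerobic and 2 in the aerobic series. Of the 16 fits that left out 1 array, the aerobic call held in 15 for HSP10, 14 for TIM23, 11 for HSP60 and MAS2, 10 for PAM17, 8 for TOM22, 7 for SSC1 and 5 for TOM40, and the anaerobic call held in 5 for HSP10 and 4 for TIM10. The model shares its estimate of the spread among all groups, so arrays of either series bear on calls in the other.

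**Figure D3:**
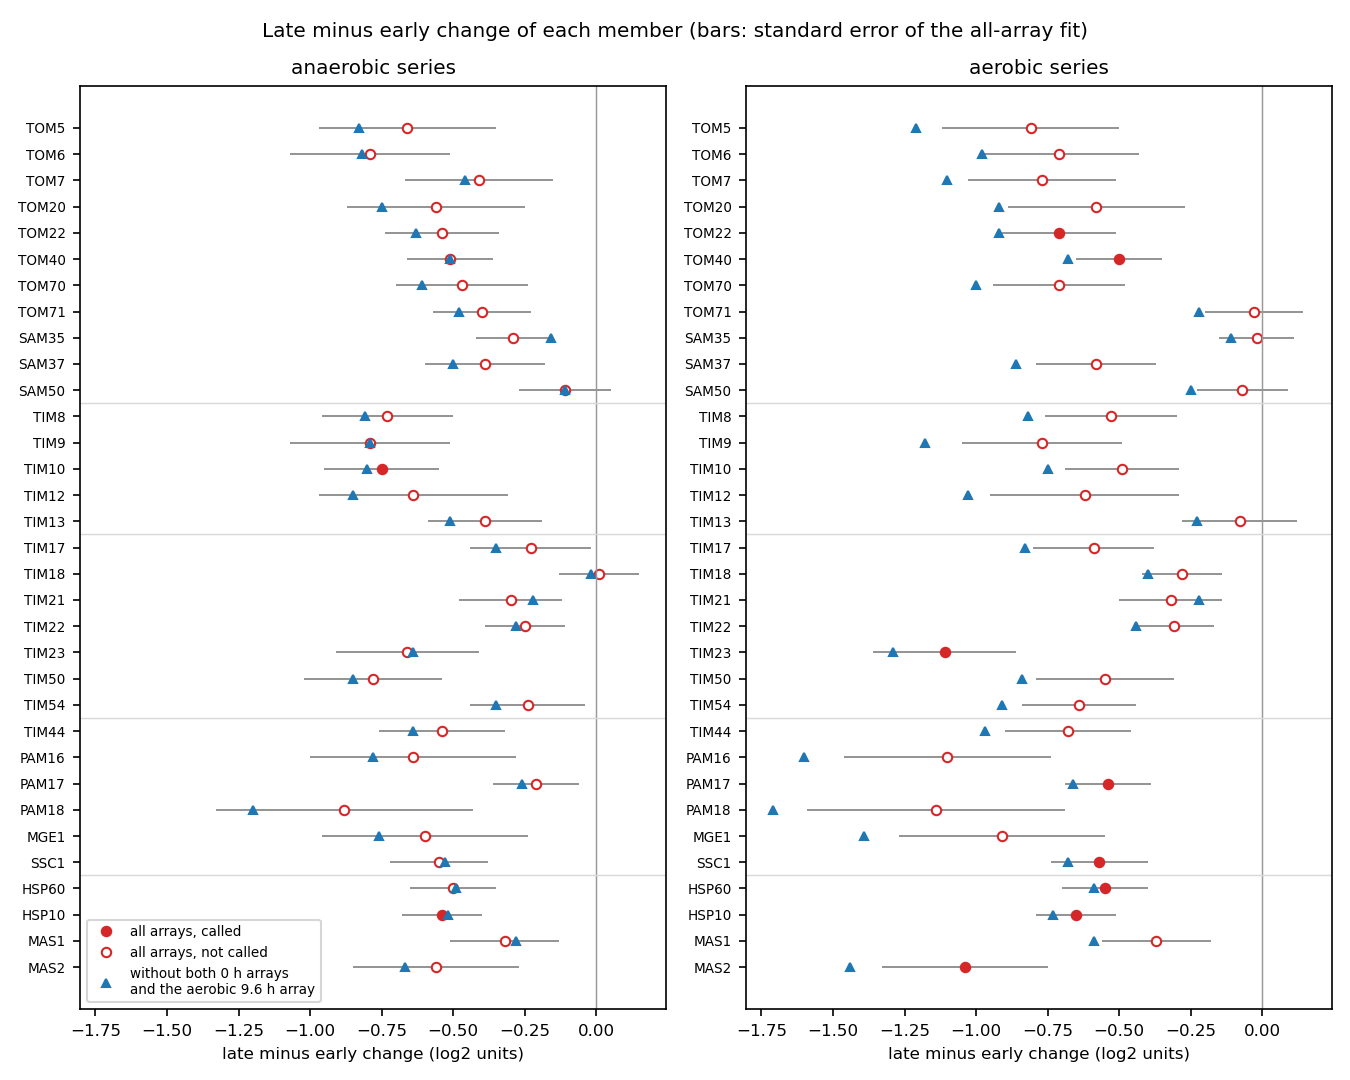
Late minus early change (log2 units) of each member in the anaerobic series (left) and the aerobic series (right), by role from top to bottom. Circles with bars are changes ± SE over all arrays, filled where called, and triangles are changes without both 0 h arrays and the aerobic 9.6 h array. Nearly all points lie left of 0, and the triangles lie farther left for PAM18, PAM16, MAS2 and MGE1 in the aerobic panel.

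In the outer membrane, 0 of the 11 genes fell in the anaerobic series and 2 in the aerobic series, with an unadjusted p under 0.05 for 5 in the anaerobic and 7 in the aerobic series. Without the 3 arrays 9 fell in the anaerobic and 8 in the aerobic series. TOM40 (YMR203W), the pore of the TOM complex, had log2 values of 13.59, 13.22 and 13.27 on the late arrays, against 13.85, 13.81 and 13.94 on the early arrays of the anaerobic series. Aerobic values were 13.69, 13.63 and 13.68 on the late arrays, against 13.79, 14.34 and 14.36 on the early arrays. Late arrays lay below all early arrays in both series, with changes of -0.51 ± 0.15 (adjusted p = 0.076) in the anaerobic and -0.50 ± 0.15 (adjusted p = 0.0469) in the aerobic series; centred on array medians the aerobic change was -0.60 but not called. TOM22 (YNL131W), the central receptor that holds the complex together, had 12.64, 12.26 and 12.13 on the late arrays, against 12.71, 12.80 and 13.15 on the early arrays of the anaerobic series. Its aerobic values were 12.70, 12.86 and 12.94 on the late arrays, against 13.12, 13.77 and 13.74 on the early arrays. Here too the groups did not overlap, and TOM22 fell by 0.71 ± 0.20 (adjusted p = 0.0381) in the aerobic series, a level 38.8% lower. The anaerobic change was -0.54 ± 0.20 (adjusted p = 0.14).

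The small subunits Tom5, Tom6 and Tom7 stabilise the TOM complex, and Tom20 is the receptor for cleavable presequences. Their genes had aerobic changes of -0.81 (TOM5), -0.71 (TOM6), -0.77 (TOM7) and -0.58 (TOM20), none of them called by limma with all arrays. Their early aerobic arrays were far apart, with an SD of 0.48 to 0.71 log2 units, with 0 h the lowest of the 3. All 4 fell in both series once the 3 arrays were left out, with changes of -0.83 to -0.46 in the anaerobic and -1.21 to -0.92 log2 units in the aerobic series.

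The paralogs TOM70 and TOM71 encode a pair of related receptors. Tom70 is the receptor for carrier proteins, and Tom71 is its less abundant relative. TOM70 (YNL121C) values over the anaerobic arrays, in order of time, were 13.11, 13.45, 13.62, 13.39, 13.17, 13.28, 12.77 and 12.71. The aerobic values were 13.42, 14.32, 14.24, 13.18, 13.10, 13.22, 13.29 and 13.34. The aerobic values at 4.1 and 6.85 h stood above all others. TOM71 (YHR117W) values were 11.45, 11.66, 11.71, 11.56, 11.36, 11.23, 11.17 and 11.23 over the anaerobic arrays. Over the aerobic arrays they were 11.56, 12.13, 12.13, 12.10, 11.63, 11.74, 11.90 and 12.08, with the 9.6 and 53.95 h arrays close to the highest. The aerobic late minus early change was -0.71 ± 0.23 (adjusted p = 0.0527) for TOM70 and -0.03 ± 0.17 (adjusted p = 0.912) for TOM71. With the 3 arrays left out, these were -1.0 ± 0.15 (adjusted p = 0.000627) and -0.22 ± 0.12 (adjusted p = 0.127), so that only TOM70 was then called. In the anaerobic series the changes without the 3 arrays were -0.61 ± 0.15 (adjusted p = 0.0126) for TOM70 and -0.48 ± 0.12 (adjusted p = 0.0112) for TOM71, both called. The difference between the paralogs itself was not tested.

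Sam50 is the core barrel protein of the SAM complex, and Sam35 and Sam37 are its peripheral subunits. SAM37 (YMR060C) values over the anaerobic arrays were 10.07, 10.39, 10.41, 10.31, 10.66, 10.09, 9.68 and 9.92. The aerobic values were 10.70, 11.56, 11.49, 10.64, 10.82, 10.66, 10.70 and 10.65. SAM37 thus shared the high values at 4.1 and 6.85 h. By limma it was called in neither series over all arrays. The changes were -0.39 ± 0.21 (adjusted p = 0.305) in the anaerobic and -0.58 ± 0.21 (adjusted p = 0.0857) in the aerobic series. Without the 3 arrays they were -0.50 ± 0.14 in the anaerobic and -0.86 ± 0.14 in the aerobic series. The aerobic early group then held only the 4.1 and 6.85 h arrays, so that change restates their high values. SAM35 (YHR083W) values were 12.03, 11.59, 11.71, 11.60, 11.42, 11.40, 11.43 and 11.64 over the anaerobic arrays. Over the aerobic arrays they were 12.52, 12.80, 12.80, 12.78, 12.83, 12.70, 12.68 and 12.68. The aerobic SAM35 values after 0 h lay between 12.68 and 12.83. SAM35 and SAM50 were called in neither series, with or without the 3 arrays. Changes over all arrays were -0.29 ± 0.13 and -0.02 ± 0.13 for SAM35, and -0.11 ± 0.16 and -0.07 ± 0.16 for SAM50, each in the anaerobic and then the aerobic series.

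**Figure D4:**
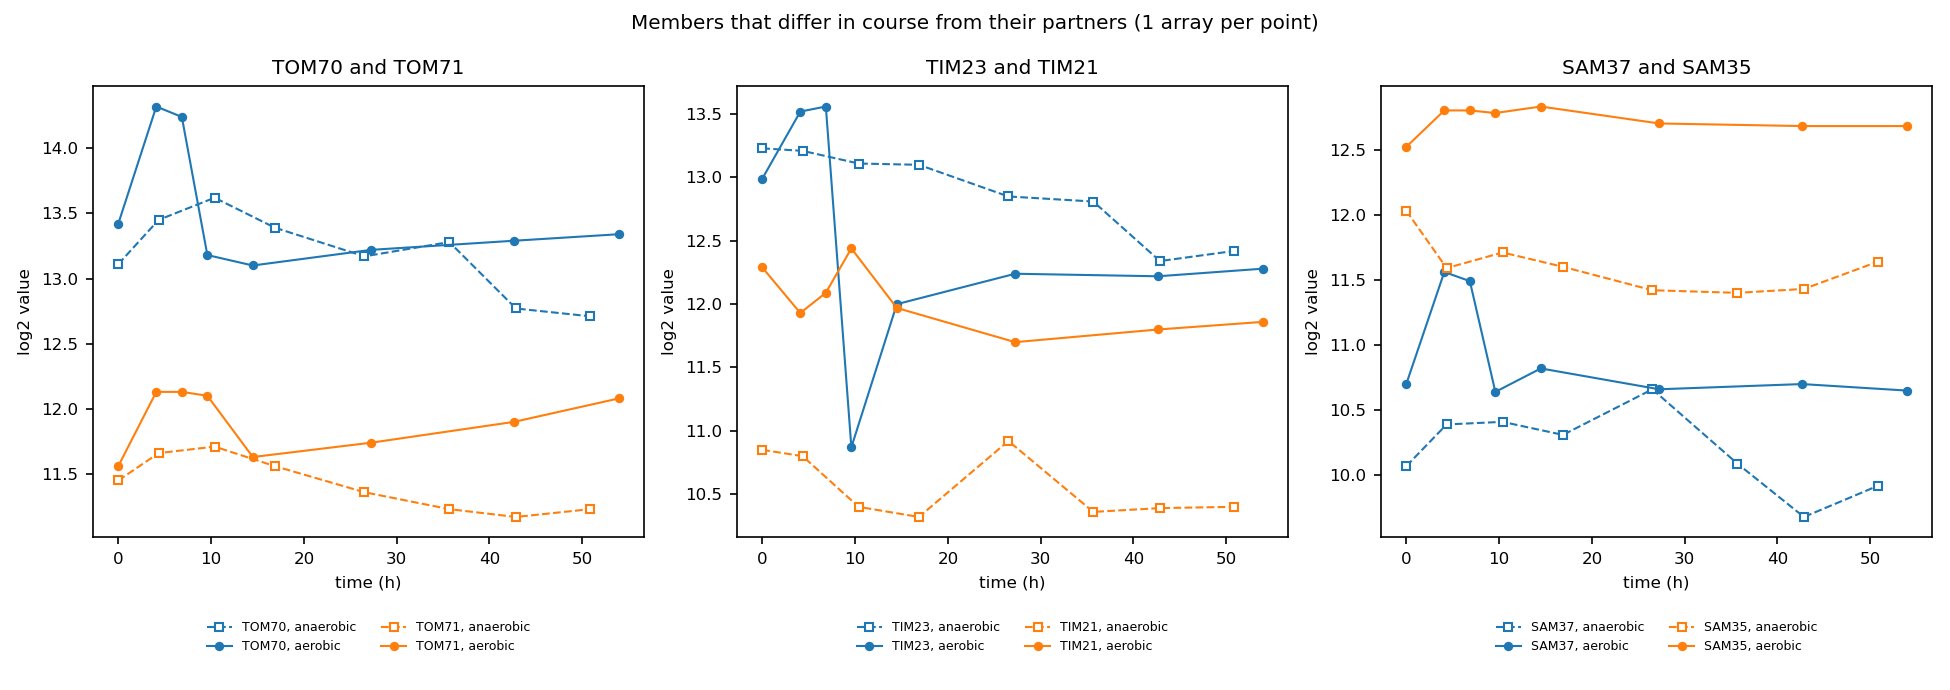
Log2 values against time (h) of TOM70 and TOM71, TIM23 and TIM21, and SAM37 and SAM35, with 1 array per point, open squares for the anaerobic series and filled circles for the aerobic series. TOM70, TIM23 and SAM37 are highest at 4.1 and 6.85 h in the aerobic series, whereas TIM21 is highest at 9.6 h and SAM35 stays between 12.52 and 12.83; levels of different probe sets are not comparable.

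The small TIMs form 2 ring-shaped chaperones, Tim9 with Tim10 and Tim8 with Tim13, and Tim12 docks cargo at the TIM22 complex. In the anaerobic series TIM10 fell and the other 4 were not called; in the aerobic series 0 of the 5 were called by limma, with 3 at an unadjusted p under 0.05. After removal of the 3 arrays, 5 fell in the anaerobic series and 4 in the aerobic series. TIM10 (YHR005C-A) had 14.13, 13.63 and 13.58 on the late arrays, against 14.44, 14.50 and 14.66 on the early arrays of the anaerobic series. With oxygen it had 14.28, 14.37 and 14.34 on the late arrays, against 14.31, 15.10 and 15.06 on the early arrays. The anaerobic groups did not overlap, whereas aerobic 0 h lay among the late arrays. The changes were -0.75 ± 0.20 (adjusted p = 0.0494) in the anaerobic and -0.49 ± 0.20 (adjusted p = 0.119) in the aerobic series.

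TIM9 (YEL020W-A) had 11.97, 11.48 and 11.60 on the late arrays, against 12.48, 12.43 and 12.51 on the early arrays of the anaerobic series. The aerobic series gave 12.61, 12.91 and 12.77 on the late arrays, against 12.72, 13.97 and 13.91 on the early arrays. Only the aerobic groups overlapped, and the changes were -0.79 ± 0.28 (adjusted p = 0.12) in the anaerobic and -0.77 ± 0.28 (adjusted p = 0.0793) in the aerobic series. TIM8 (YJR135W-A) had 11.25, 10.74 and 10.90 on the late arrays, against 11.54, 11.58 and 11.98 on the early arrays of the anaerobic series. Aerobic values were 12.26, 12.52 and 12.55 on the late arrays, against 12.39, 13.40 and 13.13 on the early arrays. Its changes were -0.73 ± 0.23 (adjusted p = 0.0857) in the anaerobic and -0.53 ± 0.23 (adjusted p = 0.14) in the aerobic series, with overlap in the aerobic series only.

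TIM12 (YBR091C) values were 11.01, 11.57, 11.69, 11.33, 11.50, 11.04, 10.52 and 10.79 over the anaerobic arrays in order of time. The aerobic values were 11.21, 12.49, 12.36, 10.23, 11.18, 11.32, 11.33 and 11.53. Late and early arrays overlapped in both series through the 0 h arrays, and without the 3 arrays TIM12 fell in both, with changes of -0.85 ± 0.15 (adjusted p = 0.00389) in the anaerobic and -1.03 ± 0.15 (adjusted p = 0.000496) in the aerobic series. TIM13 (YGR181W) had 12.98, 12.55 and 12.86 on the late arrays, against 12.94, 13.06 and 13.56 on the early arrays of the anaerobic series. Its aerobic values were 13.30, 13.21 and 13.32 on the late arrays, against 13.06, 13.55 and 13.46 on the early arrays. Its groups overlapped in both series, and without the 3 arrays TIM13 was called in the anaerobic series, at -0.51 ± 0.17 (adjusted p = 0.0344), and not in the aerobic series, at -0.23 ± 0.17 (adjusted p = 0.269). TIM13 thus had a smaller aerobic change than its partner TIM8, at -0.82 ± 0.18 (adjusted p = 0.00353); that difference was not tested.

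In the inner membrane, Tim23 and Tim17 form the presequence translocase, Tim50 is its receptor and Tim21 links it to TOM and to respiratory chain complexes. Tim22, with Tim54 and Tim18, inserts carrier proteins. Of these 7 genes 0 fell in the anaerobic series, with 2 at an unadjusted p under 0.05, and TIM23 alone fell in the aerobic series. When the 3 arrays were left out, TIM23 and TIM50 fell in the anaerobic series, and all but TIM21 with oxygen. TIM23 (YNR017W) values were 13.23, 13.21, 13.11, 13.10, 12.85, 12.81, 12.34 and 12.42 over the anaerobic arrays in order of time. Over the aerobic arrays they were 12.99, 13.52, 13.56, 10.87, 12.00, 12.24, 12.22 and 12.28. The 9.6 h value was 1.42 below the median of the other aerobic arrays, and late arrays lay below all early arrays in both series. TIM23 fell by 1.11 ± 0.25 (adjusted p = 0.0128) in the aerobic series, 53.6% lower. Its anaerobic change was -0.66 ± 0.25 (adjusted p = 0.134).

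TIM21 (YGR033C) took another course. Its values were 10.85, 10.80, 10.40, 10.32, 10.92, 10.36, 10.39 and 10.40 over the anaerobic arrays. The aerobic values were 12.29, 11.93, 12.09, 12.44, 11.97, 11.70, 11.80 and 11.86. Aerobic TIM21 was thus highest at 9.6 h, where most members were lowest. Its changes were -0.30 ± 0.18 (adjusted p = 0.361) in the anaerobic and -0.32 ± 0.18 (adjusted p = 0.254) in the aerobic series, and it was not called without the 3 arrays in either series. TIM50 (YPL063W) had 10.42, 9.92 and 9.93 on the late arrays, against 10.74, 11.02 and 10.86 on the early arrays of the anaerobic series. Aerobic TIM50 averaged 10.96 ± 0.05 on the late arrays, against 11.51 ± 0.49 on the early arrays (SD, n = 3 each), with overlap. The anaerobic groups did not overlap, with a change of -0.78 ± 0.24 (adjusted p = 0.0777).

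TIM54 (YJL054W) had 10.88, 10.51 and 10.55 on the late arrays, against 10.69, 10.87 and 11.11 on the early arrays of the anaerobic series. With oxygen it had 11.09, 11.09 and 11.16 on the late arrays, against 11.22, 12.08 and 11.95 on the early arrays, with no overlap and a change of -0.64 ± 0.20 (adjusted p = 0.0517). TIM17, TIM18 and TIM22 (YDL217C) had aerobic changes of -0.59, -0.28 and -0.31 and anaerobic changes of -0.23, 0.01 and -0.25, none called over all arrays. TIM18 was the 1 member with no lower late value in the anaerobic series, where its 8 values lay between 11.35 and 11.60.

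The motor genes had a median aerobic change of -0.80 log2 units over 6 genes, the lowest of the 5 roles, and of -1.18 without the 3 arrays. SSC1 and PAM17 fell in the aerobic series and 0 of the 6 in the anaerobic series, where 2 had an unadjusted p under 0.05. Without the 3 arrays all 6 fell in the aerobic series and all but PAM17 in the anaerobic series. SSC1 (YJR045C) encodes the matrix heat shock protein that drives import, and had 14.42, 13.99 and 14.01 on the late arrays, against 14.72, 14.58 and 14.76 on the early arrays of the anaerobic series. The aerobic series gave 14.41, 14.47 and 14.46 on the late arrays, against 14.79, 15.17 and 15.10 on the early arrays. Late arrays lay below all early arrays in both series, with changes of -0.55 ± 0.17 (adjusted p = 0.078) in the anaerobic and -0.57 ± 0.17 (adjusted p = 0.0407) in the aerobic series. PAM17 (YKR065C), a subunit that helps assemble the motor, had 12.09, 11.93 and 11.95 on the late arrays, against 12.10, 11.95 and 12.56 on the early arrays of the anaerobic series. Aerobic values were 12.61, 12.40 and 12.56 on the late arrays, against 12.83, 13.17 and 13.19 on the early arrays. Only the anaerobic groups overlapped, and the changes were -0.21 ± 0.15 (adjusted p = 0.444) in the anaerobic and -0.54 ± 0.15 (adjusted p = 0.0345) in the aerobic series.

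Pam18 is the J protein that stimulates Ssc1, Pam16 holds it in check, and Mge1 is the nucleotide exchange factor. PAM18 (YLR008C), shown for its size after its values had been seen, was at 11.14, 11.99, 12.20, 11.96, 12.07, 11.59, 10.55 and 10.55 over the anaerobic arrays in order of time. Over the aerobic arrays it was at 11.61, 13.32, 13.34, 10.69, 11.45, 11.45, 11.71 and 11.70. The aerobic 0 h value lay beside the late ones and 4.1 and 6.85 h stood far above, so that over all arrays the change was -1.14 ± 0.45 (adjusted p = 0.11). PAM18 fell in both series when the 3 arrays were left out, with changes of -1.20 ± 0.27 (adjusted p = 0.00819) in the anaerobic and -1.71 ± 0.27 (adjusted p = 0.000665) in the aerobic series. PAM16 (YJL104W) had 9.98, 9.31 and 9.43 on the late arrays, against 9.94, 10.14 and 10.56 on the early arrays of the anaerobic series. Its aerobic values were 10.26, 10.55 and 10.58 on the late arrays, against 10.56, 12.14 and 11.99 on the early arrays. Late and early arrays overlapped in each series, and without the 3 arrays PAM16 fell in both, with changes of -0.78 in the anaerobic and -1.60 in the aerobic series. MGE1 then had -0.76 in the anaerobic and -1.39 in the aerobic series, and TIM44, whose product tethers Ssc1 to the translocase, had -0.64 in the anaerobic and -0.97 in the aerobic series, all called.

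Hsp60 and Hsp10 build the chaperonin, and Mas1 and Mas2 are the subunits of the processing peptidase. Of these 4 genes, HSP10 fell in the anaerobic series, and HSP10, HSP60 and MAS2 in the aerobic series; without the 3 arrays all 4 fell in both. HSP10 (YOR020C) had 14.80, 14.34 and 14.38 on the late arrays, against 15.09, 14.97 and 15.09 on the early arrays of the anaerobic series. With oxygen it had 14.62, 14.64 and 14.61 on the late arrays, against 15.11, 15.30 and 15.39 on the early arrays. Late arrays lay below all early arrays in both series. HSP10 changed by -0.54 ± 0.14 (adjusted p = 0.0378) in the anaerobic series, 31.2% lower, and by -0.65 ± 0.14 (adjusted p = 0.0103) in the aerobic series, 36.1% lower. HSP60 (YLR259C) had 14.93, 14.46 and 14.50 on the late arrays, against 15.17, 15.03 and 15.20 on the early arrays of the anaerobic series. The aerobic series gave 14.87, 14.80 and 14.86 on the late arrays, against 15.29, 15.45 and 15.42 on the early arrays. The groups did not overlap in either series, and the changes were -0.50 ± 0.15 (adjusted p = 0.0662) in the anaerobic and -0.55 ± 0.15 (adjusted p = 0.0296) in the aerobic series.

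MAS2 (YHR024C) values were 11.84, 12.04, 12.26, 12.10, 11.72, 11.89, 11.31 and 11.25 over the anaerobic arrays in order of time. Over the aerobic arrays they were 12.10, 13.29, 13.29, 11.12, 11.45, 11.70, 11.81 and 12.05. Aerobic late arrays lay below all early arrays and the anaerobic groups overlapped. MAS2 fell by 1.04 ± 0.29 (adjusted p = 0.035) in the aerobic series, 51.5% lower, and its anaerobic change was -0.56 ± 0.29 (adjusted p = 0.286). MAS1 (YLR163C) had 11.95, 11.99 and 11.96 on the late arrays, against 12.37, 12.22 and 12.27 on the early arrays of the anaerobic series. Aerobic values were 12.83, 12.75 and 12.69 on the late arrays, against 12.69, 13.45 and 13.25 on the early arrays, with overlap there only. Its changes were -0.32 ± 0.19 (adjusted p = 0.351) in the anaerobic and -0.37 ± 0.19 (adjusted p = 0.202) in the aerobic series. With the 3 arrays left out, MAS2 had -1.44 ± 0.20 (adjusted p = 0.000369) and MAS1 -0.59 ± 0.09 (adjusted p = 0.000692) in the aerobic series.

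Whether the late minus early change itself differed between the series was tested as the anaerobic change minus the aerobic change. The late groups were not alike in the nitrogen limitation markers. Their mean was 9.58 at 35.67 h, against 13.53 and 13.69 on the other anaerobic late arrays. On the aerobic late arrays it was 14.68 to 14.72. The part of this in the comparison was not tested. By limma 0 of 33 members were called, and 0 had an unadjusted p under 0.05, where 1.82% of all genes were called. The differences lay between -0.37 (TOM71) and 0.48 (MAS2), with a median of 0.06 against -0.09 for all genes. After removal of the 3 arrays, 0 were called as well, where 9.76% of genes were, and 8 had an unadjusted p under 0.05. The median was then 0.29 and the range -0.28 (TIM13) to 0.82 (PAM16), with 28 of 33 above 0, which means that the aerobic change was the more negative. Over all arrays the standard error of this difference was 0.18 for SAM35 and 0.64 for PAM18. The lack of calls therefore does not show that the changes were equal in the 2 series.

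The anaerobic minus aerobic comparison, the mean of the differences in the 3 phases, asked how the machinery stood without oxygen. The phases were not matched in the nitrogen limitation markers. These averaged 8.90 and 9.44 on the anaerobic mid arrays, and 14.84 and 14.61 on the aerobic mid arrays. Oxygen and nitrogen limitation thus cannot be told apart in that phase for any member. Without the 3 arrays the aerobic mid phase is the 14.5 h array alone. Over all arrays TIM17 and TIM23 rose and 14 members fell, where 8.0% of genes rose and 62.3% fell. The members' median was -0.20 log2 units against -0.51 for all genes, and the direction of many members depended on the scaling. Centring each array on its median moved the median of all genes to 0.07, and 15 members then rose and 3 fell (30.0% and 23.0% of genes). After a renewed quantile normalization 9 rose and 3 fell (23.7% and 25.0% of genes). When the 3 arrays were left out, 2 rose and 22 fell (10.7% and 68.5% of genes). As a mean over the phases, TIM17 and TIM23 were called higher and SAM35, TIM8 and TIM21 lower under each of these 4 settings, but single phases had the other sign for TIM17 and TIM23 (early, uncentred) and for TIM8 (mid, centred).

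TIM23 averaged 12.88 ± 0.35 over the anaerobic arrays and 12.46 ± 0.89 over the aerobic arrays (SD, n = 8 each), and the ranges overlapped, between 12.34 and 13.23 on the anaerobic arrays and between 10.87 and 13.56 on the aerobic arrays. The difference was 0.55 ± 0.15 (adjusted p = 0.00666), and 1.13 after centring. By phase, TIM23 averaged 13.18 on the anaerobic and 13.36 on the aerobic early arrays, 12.98 on the anaerobic and 11.43 on the aerobic mid arrays, and 12.52 on the anaerobic and 12.25 on the aerobic late arrays. The anaerobic value was thus lower early, and most of the mean difference came from the 2 mid arrays of each series (1.54, against -0.17 early and 0.27 late). TIM17 averaged 13.35 ± 0.29 over the anaerobic arrays and 13.13 ± 0.51 over the aerobic arrays, with a difference of 0.31 ± 0.13 (adjusted p = 0.0442) and 0.90 after centring. It stayed called in 4 of the 16 fits that left out 1 array. The TIM17 differences by phase were -0.25 early, 1.08 mid and 0.11 late. After centring, the early differences were 0.36 for TIM23 and 0.28 for TIM17, and the mid differences 2.14 for TIM23 and 1.68 for TIM17. The nitrogen limitation markers averaged 8.90 and 9.44 on the anaerobic mid arrays, against 14.84 and 14.61 on the aerobic mid arrays, and their part in these differences was not tested. Both genes encode channel subunits of the presequence translocase. Without the 3 arrays the differences were 0.29 ± 0.09 (adjusted p = 0.0113) for TIM23 and 0.29 ± 0.10 (adjusted p = 0.0217) for TIM17.

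**Figure D5:**
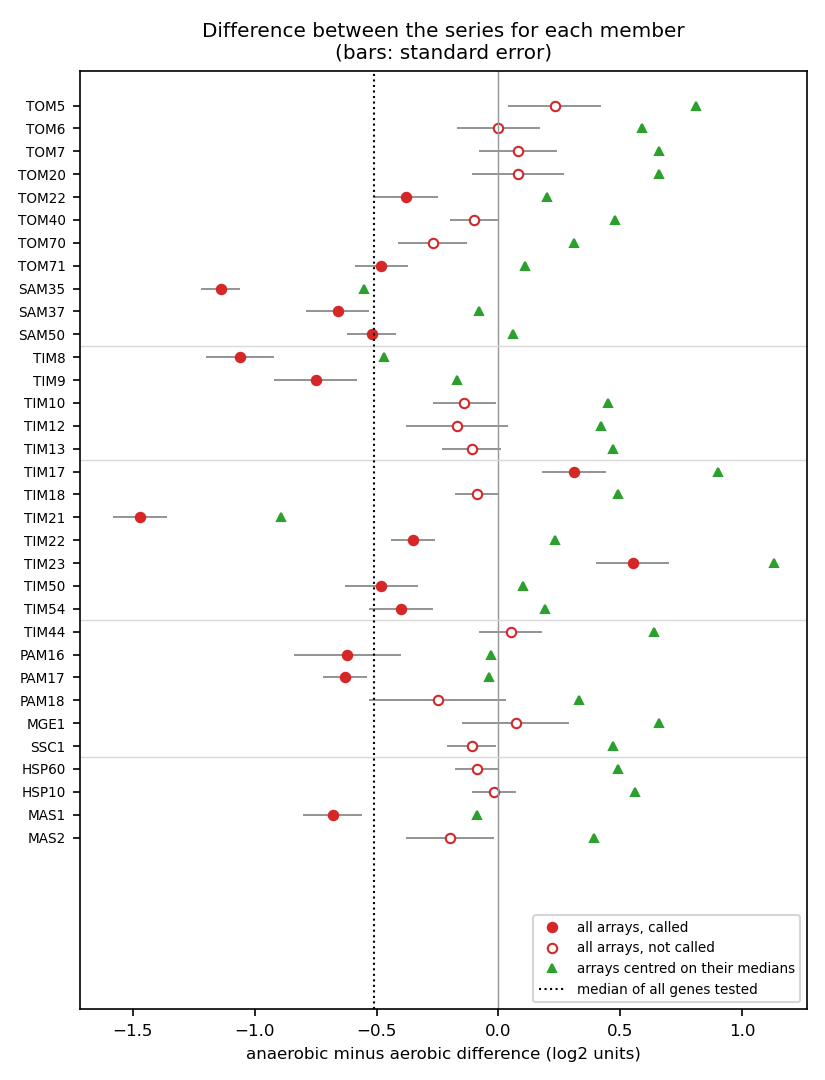
Anaerobic minus aerobic difference (log2 units) of each member, by role from top to bottom, with circles and bars for the difference ± SE over all arrays (filled where called) and triangles for arrays centred on their medians. The dotted line is the median of all genes tested, -0.51; TIM21, SAM35 and TIM8 lie left of 0 on both scales and TIM17 and TIM23 right of 0.

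TIM21, the link to the respiratory chain, lay between 10.32 and 10.92 on the anaerobic arrays and between 11.70 and 12.44 on the aerobic arrays, and the ranges did not overlap. It averaged 10.55 ± 0.25 over the anaerobic arrays and 12.01 ± 0.25 over the aerobic arrays (SD, n = 8 each) and fell by 1.47 ± 0.11 (adjusted p = 8.58e-07), 63.9% lower. SAM35 lay between 11.40 and 12.03 on the anaerobic arrays and between 12.52 and 12.83 on the aerobic arrays. It fell by 1.14 ± 0.08 (adjusted p = 5.4e-07), with no overlap. TIM8 lay between 10.74 and 11.98 on the anaerobic arrays and between 12.07 and 13.40 on the aerobic arrays and fell by 1.06 ± 0.14 (adjusted p = 3.86e-05). After centring the differences were -0.89 for TIM21, -0.55 for SAM35 and -0.47 for TIM8, all called. TIM21 and SAM35 were lower in each phase on both scales, whereas the centred TIM8 difference was -0.75 early, 0.18 mid and -0.85 late. SAM50 was the other gene without overlap, making 4 of 33 whose anaerobic arrays all lay below the aerobic ones, where 20.8% of genes did so. SAM50 lay between 10.52 and 10.88 on the anaerobic arrays and between 10.92 and 11.51 on the aerobic arrays, with a difference of -0.52 ± 0.10 (adjusted p = 0.000433) over all arrays, but of 0.06 after centring.

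The remaining members that fell over all arrays did not keep the call under centring. PAM17 averaged 12.11 ± 0.21 over the anaerobic arrays and 12.76 ± 0.29 over the aerobic arrays (SD, n = 8 each), a difference of -0.63 ± 0.09 (adjusted p = 8.75e-05), and -0.04 after centring. MAS1 averaged 12.15 ± 0.17 over the anaerobic arrays and 12.87 ± 0.36 over the aerobic arrays, a difference of -0.68 ± 0.12 (adjusted p = 0.000267), and -0.09 after centring. SAM37, TIM9, PAM16, TOM71, TIM50, TIM54, TOM22 and TIM22 had differences of -0.75 to -0.35, and of -0.17 to 0.23 after centring. SAM37 averaged 10.19 ± 0.31 over the anaerobic arrays and 10.90 ± 0.39 over the aerobic arrays. TOM71, TIM50, TIM54, TOM22 and TIM22 lay above 0 after centring.

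The other genes of import and sorting, 16 genes outside the 33, had a mixed response. In the anaerobic series 1 fell and 0 rose, MGR2, a small subunit of the presequence translocase, at -0.61 ± 0.15 (adjusted p = 0.0378). Of all 5213 genes tested 122 (2.34%) fell and 193 rose in that series. With oxygen 4 fell and 1 rose, where 223 genes (4.28%) fell and 584 rose. MBA1, a ribosome receptor of the inner membrane, had -1.28 ± 0.33 (adjusted p = 0.0244). MIA40, the import oxidoreductase of the intermembrane space, had -0.94 ± 0.24 (adjusted p = 0.0244). OXA1, the insertase for proteins made in mitochondria, had -0.79 ± 0.24 (adjusted p = 0.0427). HOT13, which assists Mia40, rose by 0.91 ± 0.22 (adjusted p = 0.0172). The list's medians were -0.01 in the anaerobic and -0.19 in the aerobic series, against 0.00 in the anaerobic and 0.10 in the aerobic series for all genes. Between the series 10 of 16 fell without oxygen, near the 62.3% of all genes, and 1 rose, but after centring 1 fell and 6 rose, where 23.0% of genes fell and 30.0% rose. TAM41, a cardiolipin synthesis enzyme, had -1.62 ± 0.17 (adjusted p = 7.32e-06) over all arrays.

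Other mitochondrial chaperones and proteases had few calls along the series. Of 8 tested mitochondrial chaperones outside the list, 0 were called by limma in the anaerobic series, with 1 at an unadjusted p under 0.05. With oxygen TCM62, a chaperonin-related assembly factor, fell by 0.98 ± 0.28 (adjusted p = 0.037), and MCX1, a ClpX-like gene, rose by 0.51 ± 0.12 (adjusted p = 0.0187). The list's medians were -0.04 in the anaerobic and 0.05 in the aerobic series. Of all 5213 genes tested 122 fell and 193 rose in the anaerobic series, and 223 fell and 584 rose in the aerobic series. Of 18 other proteases, OMA1, the stress-activated protease of the inner membrane, fell in the anaerobic series (-0.93 ± 0.23, adjusted p = 0.0372, and -0.61, again called, without the 3 arrays, 0 h being its highest anaerobic value at 10.45) and the peptidase gene PRD1 rose (0.52 ± 0.12, adjusted p = 0.0241). Aerobic OCT1, which trims proteins after the processing peptidase, fell by 0.62 ± 0.19 (adjusted p = 0.0437). Between the series 6 of the 8 chaperones and 13 of the 18 proteases fell without oxygen, whereas after centring 2 chaperones fell and 1 rose, and 6 proteases fell and 3 rose; 62.3% of all genes fell over all arrays, and 23.0% fell and 30.0% rose after centring. ECM10, a relative of SSC1, had -2.79 ± 0.31 (adjusted p = 8.56e-06) and OCT1 -1.55 ± 0.12 (adjusted p = 7.98e-07). The anaerobic ECM10 values, 4.3 to 6.09 log2 units, lay near the 4 log2 units used to filter low values.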

How the data were processed

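Total RNA of 16 samples was labelled and hybridised to Affymetrix arrays. The values are log2 intensities deposited by the authors, made with GCRMA per the submitters' processing notes; the version of GCRMA is not stated in those notes, nor whether both series were normalized together. The range of the values gave the log base. Among 5716 probe sets 5498 carried a single symbol, and the other 218 carried none or several and were not used. The probe set of highest mean stood for each of 47 genes with several probe sets. The 5213 of 5449 genes that reached 4 log2 units on at least 3 arrays were tested with limma 3.58.1 in R 4.3.3 (6 cell means, intensity trend, 10 residual degrees of freedom, tested on simulated data). Members, lists, early, mid and late groups and alternatives were chosen with earlier results of these data known. Values per array are given for up to 4 called members of largest change per role and comparison, for TOM70, TOM71 and the small TIMs, with PAM18 added; of other lists up to 4 called genes per comparison are named. Alternatives were other filters, scalings and variance models, a straight line on glucose, each series alone and leaving out arrays.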

Additional observations from a re-analysis of the deposited data

How the results depend on the processing

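No paired analysis was possible, because the labels name no replicates and the series were sampled at different times after 0 h. Estimated array weights were not used because their estimation did not converge. For single members 3066 values kept their side of the threshold, 118 passed it, 126 lost it and 23 reversed, all 23 of them in the anaerobic minus aerobic comparison. Sign changes of members called in neither fit were not counted as reversed. Aerobic TOM71, for example, changed by -0.22 to 0.06 late minus early when 1 array was left out. After quantile normalization the reversed differences were 0.09 for TOM22, 0.28 for TOM40, 0.078 for TOM71, 0.086 for SAM50, 0.35 for TIM13, 0.46 for TIM18, 0.24 for TIM22, 0.11 for TIM50, 0.19 for TIM54 and 0.008 for PAM16. After centring on array medians they were 0.20 for TOM22, 0.48 for TOM40, 0.11 for TOM71, 0.064 for SAM50, 0.45 for TIM10, 0.47 for TIM13, 0.49 for TIM18, 0.23 for TIM22, 0.099 for TIM50, 0.19 for TIM54, 0.47 for SSC1, 0.49 for HSP60 and 0.56 for HSP10. The anaerobic count of 2 members called late minus early became 25 without the 3 arrays, 1 with no filter, no intensity trend or robust eBayes, and 0 after quantile normalization, after centring, for the series alone and for a straight line on glucose. The aerobic count of 8 became 28 without the 3 arrays, 2 for the series alone and 0 for a straight line. Leaving out 1 array at a time gave 0 to 8 in the anaerobic series, 0 to 27 in the aerobic series, 0 to 0 for the difference of changes and 14 to 18 for anaerobic minus aerobic. Over all genes these ranges were 74 to 612, 278 to 1643, 27 to 233 and 3389 to 4081. Without the 3 arrays 2120, 2841 and 509 genes were called in the anaerobic series, the aerobic series and their difference, against 315, 807 and 95 over all arrays; each series alone gave 120 and 476. Leaving out an array changes both the group means and the shared spread. Signal over background could not be read from the deposited values.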

Other observations

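The mitochondrial ribosomal protein genes, which make up the machinery for translation inside the organelle, followed a course close to that of the import genes. Their mean over 66 genes was 11.74, 11.78, 12.08, 11.96, 11.94, 11.56, 10.87 and 10.90 log2 units on the anaerobic arrays in order of time. On the aerobic arrays it was 11.91, 13.24, 13.11, 11.19, 11.49, 11.68, 11.71 and 11.75. By limma 1 of 66 fell late minus early in the anaerobic series and 36 in the aerobic series, and 0 rose. Of all genes tested 2.34% fell in the anaerobic and 4.28% in the aerobic series. Without both 0 h arrays and the aerobic 9.6 h array 65 fell in the anaerobic series (19.7% of all genes) and 66 in the aerobic series (21.4% of all genes). MRPL31 had -1.39 ± 0.28 (adjusted p = 0.00911) in the aerobic series. The respiratory chain genes took another course: 13 of 24 fell in the anaerobic series, where 2.34% of all genes fell. In the aerobic series 0 were called by limma and 0 had an unadjusted p under 0.05. Without the 3 arrays 18 fell in the anaerobic series, above the 19.7% of all genes, and 2 in the aerobic series, below the 21.4% of all genes. For 3 of them, the cytochrome c gene CYC1, the NADH dehydrogenase gene NDE1 and COX5A, the change itself differed between the series, at -3.66, -3.38 and -1.94 log2 units. Part of the anaerobic values is the 0 h array, on which all 24 were high.

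Among regulators, HAP4, the activator of respiratory genes, fell by 1.61 ± 0.32 (adjusted p = 0.0137) late minus early in the anaerobic series. Its highest anaerobic value was at 0 h, at 13.35, and without the 3 arrays the change was -1.26. HSF1, the heat shock factor, rose by 0.91 ± 0.23 (adjusted p = 0.0225) in the aerobic series. The cytosolic chaperone list, which holds HSF1 too, had 0 of 17 called in the anaerobic series, with 2 at an unadjusted p under 0.05. In the aerobic series HSF1 rose and CPR6, an Hsp90 partner, fell by 0.64 ± 0.17 (adjusted p = 0.0244). Of all 5213 genes tested 584 rose and 223 fell there. The aerobic early arrays were far apart, with list means of 14.78 at 0 h, 13.15 at 4.1 h and 13.28 at 6.85 h. Late list means were 13.83 to 14.14. At 0 h 9 of the 17 genes lay above all other aerobic arrays, so the few calls do not show a steady list. CPR6 was highest at 0 h, at 14.02. Without the 3 arrays the aerobic changes were -0.43 for CPR6 and 1.22 for HSF1. The list's mean was lowest at 10.38 h in the anaerobic series, at 12.92, and at 4.1 h in the aerobic series, at 13.15. The import genes were highest on those arrays. The anaerobic low was shallow, with list means between 12.92 and 13.01 from 4.35 to 26.52 h.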
